A study of Mus musculus with 6 samples.

Results

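Blood endothelial cells line blood vessels, and 36 genes of that cell type were examined in mouse tissue taken from around the inner ear at embryonic day 11.5 (E11.5). The genes were chosen by symbol, as receptors, junction and surface proteins, secreted products, transcription factors and arterial or venous markers of endothelium. They are 36 of the 18193 genes that the array represents by a probe set with a single gene symbol, and all 36 were bright enough to be tested. The tissue held the otic vesicle, the epithelial sac that becomes the inner ear, and the periotic mesenchyme, the loose tissue around it, so it also contained the local blood vessels.

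Each of the 6 samples was RNA from 3 pooled E11.5 embryos, read on 1 Affymetrix Mouse Genome 430 2.0 array. In the 3 pools called Mest-KO, the transcription factor gene Tbx1 was knocked out conditionally with T-Cre. The 3 control pools were heterozygous for the conditional Tbx1 knockout and also carried T-Cre, so neither group is wild type. T-Cre is driven by regulatory sequence of the mesodermal gene T (Brachyury), and where it had recombined in this tissue was not measured here. In bulk RNA such as this, fewer endothelial cells and less of a transcript per endothelial cell cannot be told apart.

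Tbx1, the conditionally deleted gene, read 525, 567 and 447 in controls 1 to 3 and 520 (Mest-KO 1), 578 (Mest-KO 2) and 409.9 (Mest-KO 3) in the knockout pools. The groups overlapped, with a log2 difference of -0.03 ± 0.14 (SE; adjusted p = 0.967 by limma). Where its probe set lies relative to the deleted stretch was not examined, so it does not check the labels. The array medians lay between 60.0 and 70.6, and the arrays correlated at 0.987 to 0.993 over genes. With 3 pools a group, the smallest p of an exact permutation test is 0.1, so none was used to call a gene.

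Endothelium grows and sprouts in response to VEGF, which acts through the receptors Kdr and Flt1. A second receptor system, Tek (TIE2) with its ligands the angiopoietins and its partner Tie1, governs how vessels remodel and settle. Neighbouring cells are held together by VE-cadherin (Cdh5), Pecam1 and Cldn5, and transcription factors of the ETS family, Erg and Fli1 among them, bind regulatory elements of many endothelial genes.

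For 6 of the 36 genes the values kept the genotypes apart: Tie1, Tek, Eng, Robo4, Vwf and Egfl7 were each higher in every Mest-KO pool than in every control pool. These are 16.7% of the members, where 9.31% of all genes tested were separate on that side. No member passed the test over all genes given below. The RefSeq table of promoters (build GRCm38.p6) holds 5 of those 6, and the 250 bases before the first listed start of each are printed here, because these are the genes whose values separated the genotypes. Capitals mark matches to CAGGAAG or CCGGAAG, 7-letter forms of the site bound by ETS factors, searched on both strands. Other forms were not searched. The shorter run GGAA within them also occurs in windows labelled as having no match.
Tie1, chr4:118489850-118490099, minus strand, no match: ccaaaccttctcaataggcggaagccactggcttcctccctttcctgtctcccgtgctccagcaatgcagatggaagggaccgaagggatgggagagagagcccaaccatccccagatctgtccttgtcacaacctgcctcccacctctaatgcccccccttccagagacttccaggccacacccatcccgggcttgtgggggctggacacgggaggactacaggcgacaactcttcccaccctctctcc
Tek, chr4:94739039-94739288, plus strand, no match: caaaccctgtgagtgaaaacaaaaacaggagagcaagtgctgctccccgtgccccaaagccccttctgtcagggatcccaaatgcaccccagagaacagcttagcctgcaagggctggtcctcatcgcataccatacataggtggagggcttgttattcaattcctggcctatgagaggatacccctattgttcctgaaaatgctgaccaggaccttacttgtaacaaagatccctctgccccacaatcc
Eng, chr2:32646345-32646594, plus strand, no match: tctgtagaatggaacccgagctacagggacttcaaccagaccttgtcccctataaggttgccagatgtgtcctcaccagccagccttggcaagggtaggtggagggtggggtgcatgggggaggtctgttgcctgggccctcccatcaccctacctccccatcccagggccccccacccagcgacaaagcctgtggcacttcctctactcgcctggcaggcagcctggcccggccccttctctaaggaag
Robo4, chr9:37401722-37401971, plus strand, 1 match: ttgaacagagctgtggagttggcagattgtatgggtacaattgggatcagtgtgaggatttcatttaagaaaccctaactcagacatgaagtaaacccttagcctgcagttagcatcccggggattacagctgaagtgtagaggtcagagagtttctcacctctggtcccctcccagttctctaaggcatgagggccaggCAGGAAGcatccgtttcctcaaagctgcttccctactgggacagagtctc
Egfl7, chr2:26580833-26581082, plus strand, 2 matches: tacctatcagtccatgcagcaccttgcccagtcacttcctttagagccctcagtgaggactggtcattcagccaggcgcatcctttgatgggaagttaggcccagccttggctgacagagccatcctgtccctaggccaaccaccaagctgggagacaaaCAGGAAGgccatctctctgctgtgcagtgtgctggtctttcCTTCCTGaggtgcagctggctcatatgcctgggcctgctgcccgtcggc
The Robo4 match begins 50 bases before the start, and those of Egfl7 begin 90 and 49 bases before it. Egfl7 has further listed starts, not printed, whose windows held 1 match and 0 matches. Over all members in the table, 9 of 26 windows (34.6%), from 8 of 21 genes, held at least 1 match, against 17.0% of 32851 windows of the same length for all genes. A match is a run of letters and was not tested as a binding site.

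None of the 36 endothelial genes passed the test of Mest-KO against control (limma, Benjamini-Hochberg adjusted over all 14171 genes tested; 0 of 36, where 0.148% of all genes, 21, passed). The lowest adjusted p of a member was 0.207, for Tie1. Before adjustment, 5 members (13.9%) had a p under 0.05, all of them higher in Mest-KO (Tie1, Tek, Vwf, Mmrn2 and Robo4), against 5.74% of all genes on the higher side. On the lower side the count was 0, against 3.24% of all genes. The groups did not overlap for 6 members higher in Mest-KO (16.7%), against 9.31% of all genes, and for 0 members lower, against 5.22%.

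Over the whole list the values lay close to no difference. The median log2 difference (Mest-KO minus control, of log2(intensity + 16)) was 0.04, against 0.01 for all genes tested. There were 25 members (69.4%) on the higher side and 11 on the lower, where 53.8% of all genes were on the higher side. For 16 members the difference was under 0.1 in size. The 95% interval stayed within a 1.5-fold change in either direction for 25 members, and over all 36 the bounds ran from -0.77 to 0.84. The direction of the median was not stable: it was -0.02, with 13 members on the higher side, when each array was centred on its own median. That change of scaling also put the median of all genes at -0.05, with 36.9% of them on the higher side. The members' median was -0.01 without control 2 and -0.03 without Mest-KO 2. In these fits 17 and 15 members were on the higher side, where 53.4% and 52.3% of all genes were.

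**Figure D1:**
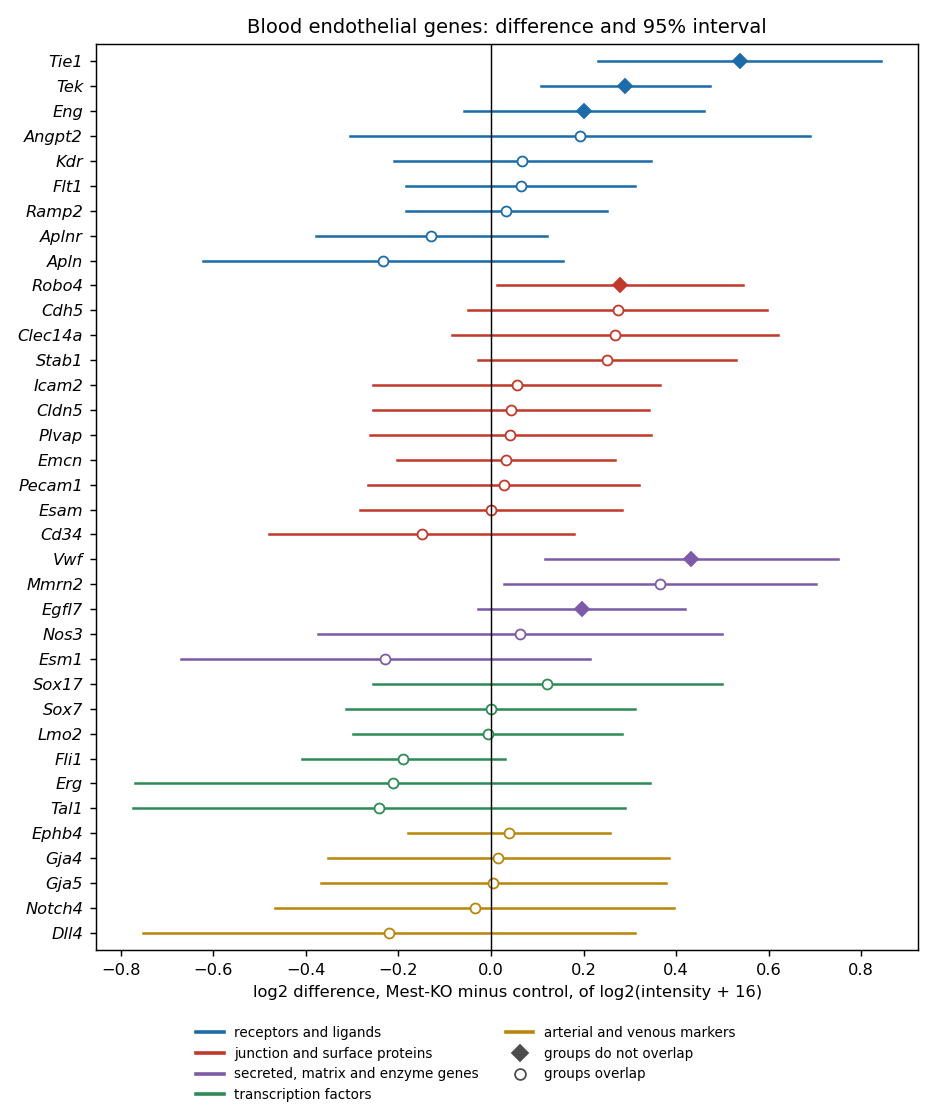
Log2 difference between the 3 Mest-KO and 3 control pools (horizontal axis, Mest-KO minus control, of log2(intensity + 16)) for each of the 36 endothelial genes, coloured by role, with 95% intervals of the fit. Diamonds mark the 6 genes whose groups did not overlap, all to the right of 0, and the intervals of 5 genes lie wholly above 0.

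Among the receptors and ligands (9 genes, median log2 difference 0.07, 7 higher and 2 lower), both receptors of the angiopoietin system were higher in Mest-KO, while the groups overlapped for both VEGF receptors. Tie1, an orphan receptor tyrosine kinase that modulates Tek, read 214, 218 and 194 in controls 1 to 3 and 359, 309 and 267 in Mest-KO 1 to 3. Its lowest Mest-KO pool lay above its highest control pool. The means were 208 ± 12.7 and 312 ± 46.4 (SD, n = 3), a log2 difference of 0.54 ± 0.14 (SE; 95% interval 0.23 to 0.84) and an adjusted p of 0.207 by limma.

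Tek, the angiopoietin receptor, read 1147, 1120 and 1128 in controls and 1344, 1459 and 1363 in Mest-KO. The 3 control values were close together, and every Mest-KO value was above them. The means of 1132 ± 14.1 and 1389 ± 61.4 (SD, n = 3) gave a log2 difference of 0.29 ± 0.08 (SE; 0.11 to 0.47) and an adjusted p of 0.265 by limma. Neither receptor passed the threshold under any of the 19 alternative settings, which gave 0.43 to 0.64 for Tie1 and 0.23 to 0.34 for Tek. Each is read by 1 probe set.

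Angpt2, an angiopoietin that endothelium itself secretes, read 72.8, 49.2 and 49.1 in controls and 58.7, 98.6 and 49.6 in Mest-KO. Only Mest-KO 2 stood above the controls, and the groups overlapped. Kdr, the main VEGF receptor, read 441, 447 and 572 in controls and 503, 538 and 482 in Mest-KO. All 3 Mest-KO values fell inside the control range, and the 95% interval of the log2 difference was -0.21 to 0.35. Flt1, a VEGF receptor that also acts as a decoy, read 677, 544 and 600 in controls and 630, 671 and 600 in Mest-KO, again with overlapping groups and a log2 difference of 0.06 ± 0.11 (SE). Its 3 dimmer probe sets gave 0.02 ± 0.20, -0.01 ± 0.17 and -0.32 ± 0.15 (SE), so they did not share a direction.

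Eng (endoglin), a coreceptor for ligands of the TGF-beta and BMP families, read 271, 259 and 283 in controls and 338, 298 and 307 in Mest-KO. Its groups did not overlap, but the gap between control 3 and Mest-KO 2 was small. The means were 271 ± 11.9 and 315 ± 20.7 (SD, n = 3), with a log2 difference of 0.20 ± 0.12 (SE) and an adjusted p of 0.650 by limma. Ramp2, a partner of the adrenomedullin receptor, lay between 1337 and 1645 over the 6 arrays, with overlapping groups.

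The apelin pair, a ligand of sprouting tip cells and its receptor, had both members of this group that were on the lower side. The ligand gene Apln read 128, 92.4 and 130.4 in controls and 79.2, 98.5 and 113 in Mest-KO. Control 2 fell among the Mest-KO values, and the log2 difference was -0.23 ± 0.18 (SE), with an adjusted p of 0.750 by limma. It was -0.12 without Mest-KO 1 and -0.37 without control 2, and it turned to 0.02 with a hindbrain marker mean as a covariate. Its receptor gene Aplnr read 5234, 4713 and 6540 in controls and 4510, 5515 and 4953 in Mest-KO, with overlapping groups.

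**Figure D2:**
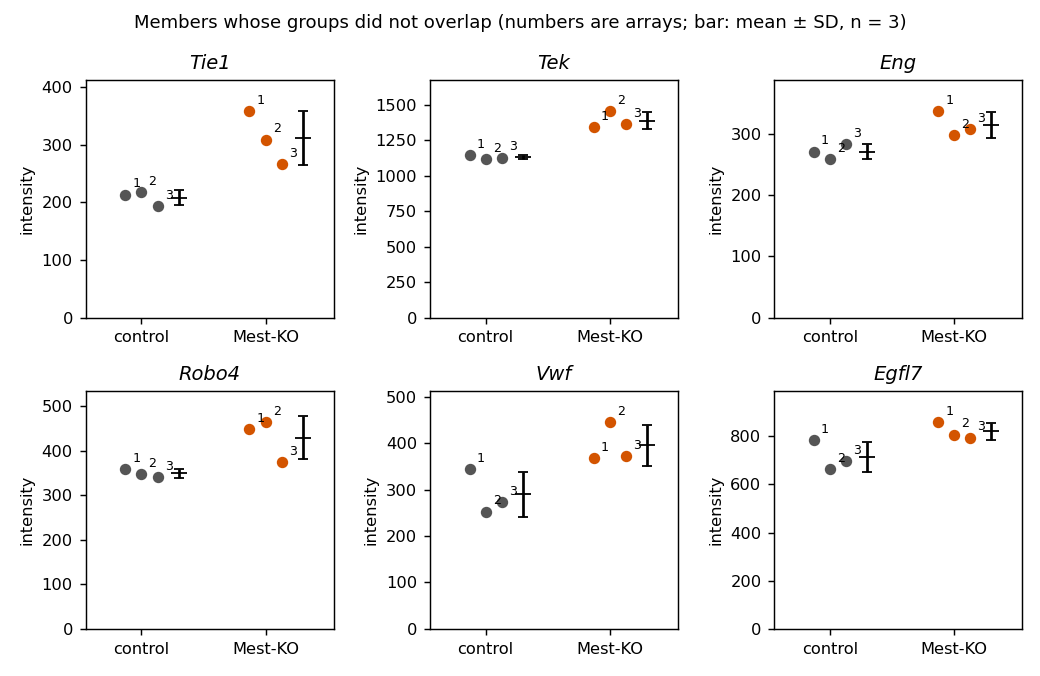
Intensity (vertical axes, linear, starting at 0) on each of the 6 arrays for the 6 endothelial genes whose groups did not overlap, with mean ± SD of 3 pools beside the points. Tie1 ran from 194 to 218 in controls and from 267 to 359 in Mest-KO, while for Eng and Egfl7 the groups were separate by a narrow gap.

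Junction and surface proteins (11 genes) had a median log2 difference of 0.04, with 10 genes higher and 1 lower. Groups were separate for 1 of the 11, on the higher side, a share close to the 9.31% of all genes. Robo4, a roundabout receptor restricted to endothelium, read 359, 348 and 340.1 in controls and 448, 464 and 374 in Mest-KO. The lowest Mest-KO pool, Mest-KO 3, lay just above the highest control. Its means were 349 ± 9.68 and 429 ± 48.2 (SD, n = 3), and the log2 difference was 0.28 ± 0.12 (SE), with an adjusted p of 0.528 by limma.

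Of the core junction genes, Cdh5 was on the higher side and the others had differences near 0. Pecam1 (CD31), the adhesion molecule most used to mark endothelium, read 215, 201 and 234 in controls and 209, 206 and 248 in Mest-KO. The groups interleaved, and the log2 difference of 0.03 had a 95% interval of -0.27 to 0.32. Cdh5 (VE-cadherin), the cadherin of endothelial junctions, read 215, 166 and 180 in controls and 207, 218 and 262 in Mest-KO. Only control 1 reached the Mest-KO range, and the log2 difference was 0.27 ± 0.15 (SE), with an adjusted p of 0.625 by limma. It was 0.18 without Mest-KO 3 and 0.17 with the mean of its probe sets. Cldn5, the claudin of endothelial tight junctions, and Esam, an endothelial adhesion molecule, had log2 differences of 0.04 and 0.00055.

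Clec14a and Stab1 were on the higher side with overlapping groups. Clec14a, a C-type lectin of endothelium that binds the matrix protein Mmrn2, read 527, 454 and 502 in controls and 561, 783 and 485 in Mest-KO. Mest-KO 2 held most of its log2 difference of 0.27 ± 0.16 (SE; adjusted p = 0.656 by limma), which was 0.08 without that pool and 0.58 with the hindbrain covariate. A second Clec14a probe set read 309, 330 and 304 in controls and 385, 426 and 360 in Mest-KO, with separate groups and a log2 difference of 0.30 ± 0.11 (SE). Stab1 (stabilin 1), a scavenger receptor found on sinusoidal endothelium and on macrophages, read 605, 570 and 645 in controls and 844, 734 and 612 in Mest-KO. Its log2 difference was 0.25 ± 0.13 (SE), with an adjusted p of 0.593 by limma, and it was 0.14 without Mest-KO 1.

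Cd34, a sialomucin of endothelial and blood progenitor cells, was the member of this group on the lower side. It read 1941, 1610 and 1934 in controls and 1543, 2128 and 1343 in Mest-KO, so that the highest and the lowest of the 6 values were both Mest-KO pools. The sialomucin Emcn (1362 to 1794 over the 6 arrays), the adhesion molecule Icam2 (524 to 758) and Plvap (375 to 512), which forms the diaphragms of capillary openings, had overlapping groups.

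The secreted, matrix and enzyme genes (5 genes) had a median log2 difference of 0.20, with 4 higher and 1 lower. Vwf, von Willebrand factor, which endothelium stores and releases to capture platelets, read 345, 252 and 272 in controls and 368, 445 and 371 in Mest-KO. Control 1 came close to the Mest-KO values without reaching them. The means were 289.8 ± 48.5 and 395 ± 43.5 (SD, n = 3), and the log2 difference was 0.43 ± 0.14 (SE), with an adjusted p of 0.357 by limma. It ranged from 0.26, without control 2 and Mest-KO 2, to 0.68, with a hindbrain marker mean as a covariate.

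Egfl7, a secreted factor of endothelial cells that shapes vessel tubes, read 784, 663 and 698 in controls and 859, 807 and 794 in Mest-KO. The gap between control 1 and Mest-KO 3 was small, with means of 715 ± 62.2 and 820.1 ± 34.0 (SD, n = 3). The log2 difference was 0.20 ± 0.10 (SE), with an adjusted p of 0.609 by limma. The 3 other Egfl7 probe sets, all dimmer, also had separate groups, at 0.25 ± 0.10, 0.37 ± 0.16 and 0.62 ± 0.20 (log2 difference ± SE), and the mean of all 4 gave 0.36. The probe set used and that at 0.37 carry the platform's suffix for probes shared with other sequences.

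Mmrn2 (multimerin 2), a matrix protein laid down by endothelium, read 642, 485 and 579 in controls and 689, 915 and 624 in Mest-KO. Mest-KO 3 lay below control 1, and Mest-KO 2 stood above all others. The log2 difference was 0.37 ± 0.15 (SE), with an adjusted p of 0.509 by limma, and it was 0.21 without Mest-KO 2, 0.10 without control 2 as well and 0.74 with the hindbrain covariate. Nos3, the endothelial nitric oxide synthase, lay between 61.7 and 115, and Esm1, a proteoglycan of sprouting tip cells, between 36.7 and 75.2, both with overlapping groups. Esm1 was the gene of this group on the lower side.

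Of the transcription factors (6 genes), 5 were on the lower side and 1, Sox17, on the higher, with a median log2 difference of -0.10. Among the 5, Sox7 and Lmo2 had log2 differences of only -0.0009 and -0.007. None of the 6 separated the groups, where 9.31% of all genes did so on the higher side and 5.22% on the lower. Fli1, an ETS factor of endothelium and blood, read 2120, 1962 and 2415 in controls and 2079, 1879 and 1729 in Mest-KO. Control 2 lay within the Mest-KO range, and the log2 difference was -0.19 ± 0.10 (SE), with an adjusted p of 0.615 by limma. It was -0.11 without control 3, -0.13 without Mest-KO 3 and -0.04 with the hindbrain covariate. Its second probe set had the opposite sign, 0.08 ± 0.24 (SE), and the mean of both gave -0.05. Erg, the ETS factor that maintains endothelial identity, read 167, 118 and 175 in controls and 148, 179.9 and 78.0 in Mest-KO. Mest-KO 3 was the lowest of the 6 and Mest-KO 2 the highest. The second Erg probe set read 114, 129 and 139 in controls and 88.4, 119 and 116 in Mest-KO. On that probe set Mest-KO 3 lay within the control range, and Mest-KO 1 was the lowest.

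Tal1, a factor of blood and endothelial progenitors, read 793, 725 and 697 in controls and 882, 719 and 375 in Mest-KO. Mest-KO 3 was again the single Mest-KO pool below the control range, and Mest-KO 1 was above it. Lmo2, the adaptor protein that works with Tal1, lay between 801 and 1117, Sox7 between 541 and 730.0 and Sox17 between 221 and 361, all with overlapping groups. On Mest-KO 3, 0 of the 6 factors were above their own 6-array mean, and their mean there was -0.37 on the log2 scale.

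Arterial and venous markers (5 genes) had a median log2 difference of 0.01, with 3 higher and 2 lower. No marker had separate groups, where 9.31% of all genes did on the higher side and 5.22% on the lower. Dll4, the Notch ligand of arteries and tip cells, read 37.6, 27.1 and 43.1 in controls and 37.9, 36.8 and 14.3 in Mest-KO, the value on Mest-KO 3 being the lowest of any member on any array. It was still above 11.2, the highest intensity of 27 probe sets for bacterial transcripts that had not been spiked in, which stood for background. Notch4, an endothelial Notch receptor, read 260.0, 178 and 256 in controls and 244, 269.5 and 167 in Mest-KO. The connexin genes of arteries, Gja4 (170.1 to 269) and Gja5 (16.1 to 21.2), overlapped between groups, and Gja5 was close to background throughout. Ephb4, the receptor that marks veins, read 639, 688 and 676 in controls and 642, 721 and 699 in Mest-KO.

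The pools differed from one another across most members at once. Control 2 was low and Mest-KO 2 high: 3 of 36 endothelial genes were above their own 6-array mean on control 2 and 32 on Mest-KO 2, where 45.2% and 54.2% of all genes were. The other pools had 24 (control 1), 16 (control 3), 19 (Mest-KO 1) and 11 (Mest-KO 3) members above their mean. Mest-KO 2 was the highest array for 18 members and the lowest for 0, and control 2 was the lowest for 15 and the highest for 0. The mean over the 36 genes, centred per gene, was 0.06, -0.17 and 0.01 in controls 1 to 3 and 0.01, 0.19 and -0.10 in Mest-KO 1 to 3 on the log2 scale, so the groups overlapped. The median spread within groups was 0.19 (SD of log2) for members and 0.14 for all genes.

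**Figure D3:**
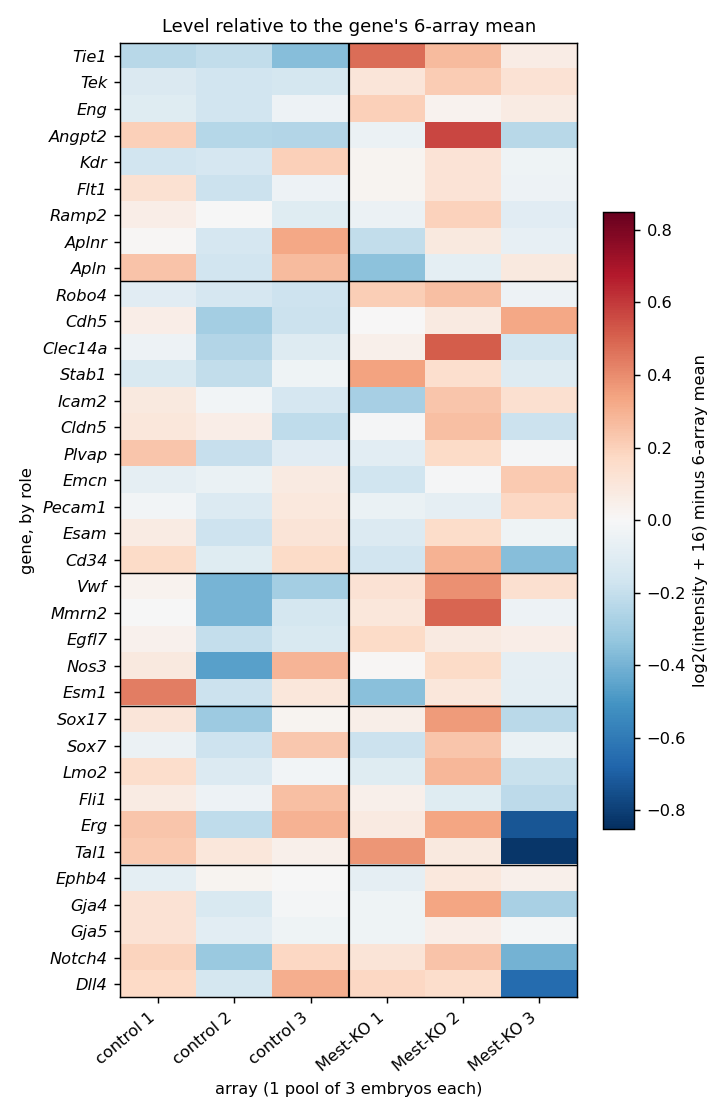
Level of each of the 36 endothelial genes on each array, as log2(intensity + 16) minus the gene's 6-array mean, with genes ordered by role. The control 2 column is below the mean for 33 genes and the Mest-KO 2 column above it for 32, and the mean of the transcription factors is lowest on Mest-KO 3.

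Without control 2 and Mest-KO 2, an alternative added after the data were seen, 13 members were on the higher side and 23 on the lower, with a median of -0.06. Of all genes, 52.7% were on the higher side in that fit. Tie1 was then the single member with an unadjusted p under 0.05 on the higher side, and Aplnr, Cd34 and Erg had one on the lower side (1 and 3 of 36, where 5.22% and 5.28% of all genes did). With 2 pools a group, groups did not overlap for 6 members higher and 12 lower, where 21.8% and 18.5% of all genes did so.

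**Figure D4:**
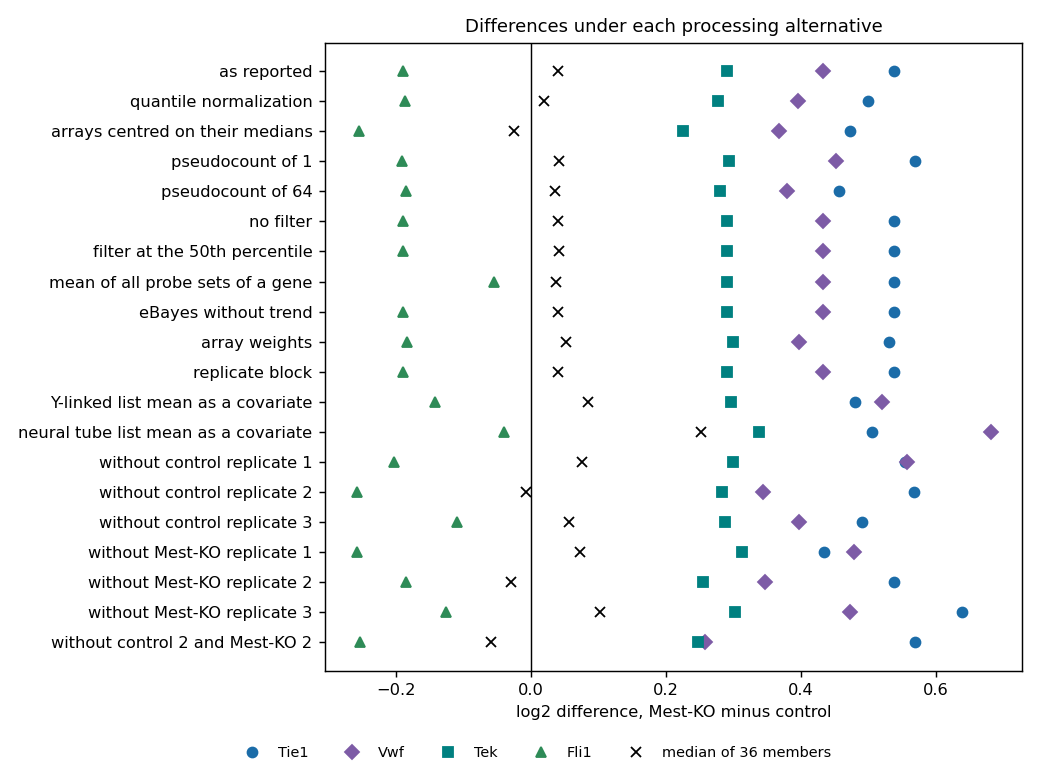
Log2 difference (horizontal axis, Mest-KO minus control) of Tie1, Vwf, Tek and Fli1 and of the median over the 36 endothelial genes, as reported and under each of 19 alternative settings (rows). Tie1 stayed between 0.43 and 0.64, and the median crossed 0, at -0.02 with arrays centred on their medians and at -0.06 without control 2 and Mest-KO 2.

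Of the marker lists of other cell types, those of smooth muscle and pericytes and of endocardium were low on control 2 and high on Mest-KO 2. Not all lists did so: the otic epithelium list was at 0.19 on control 2 and -0.21 on Mest-KO 2. The part of these cells in the results was not tested. Smooth muscle and pericyte genes, which mark the outer cells of vessels (11 tested of 13, 1 at background), had list means of 0.04, -0.14 and -0.04 in controls and 0.06, 0.25 and -0.17 in Mest-KO, with control 2 the lowest control and Mest-KO 2 the highest pool as in endothelium, and Mest-KO 3 the lowest pool. Their summed intensity was 6411 to 6858 in controls and 6580 to 7655 in Mest-KO, and their median log2 difference was 0.05, with 10 higher and 1 lower. The mean of the 2 endocardial genes was lowest on control 2, at -0.20, and highest on Mest-KO 2, at 0.19. Macrophage and leukocyte genes (12, all above background) were also highest on Mest-KO 2, at 0.22, but lowest on control 3, at -0.17. Their sums were 6730 to 7655 in controls and 7255 to 9477 in Mest-KO, and their median log2 difference was 0.14, with 9 higher and 3 lower.

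Erythroid and platelet genes were low on Mest-KO 3, the pool where the probe sets used for Tal1, Erg and Dll4 were low. The second Erg probe set was not low there. Erythroid genes (13 with a probe set, all above background) had list means of 0.11, 0.17 and 0.03 in controls and 0.33, -0.08 and -0.55 in Mest-KO, and sums of 43519 to 45814 and 36804 to 45203. Their median log2 difference was -0.19, with 11 lower and 2 higher. Platelet and megakaryocyte genes (8, all above background) had means of 0.12, 0.07 and 0.13 in controls and -0.06, 0.15 and -0.41 in Mest-KO, and sums of 2926 to 3231 and 1814 to 3115. Their median was -0.28, with 7 lower and 1 higher. In each of these 2 lists 1 gene, Hemgn and Gp9, had separate groups on the lower side, where 5.22% of all genes did. Tal1, Lmo2 and Fli1 are also expressed in blood cells. Lymphatic endothelial genes (5, all above background) had a median log2 difference of -0.07 and went both ways. Prox1, the lymphatic identity factor, was at 0.41 ± 0.12 (SE). Pdpn (podoplanin), a surface protein also found on mesenchyme, was at -0.27 ± 0.08 and Sema3d at -0.27 ± 0.13. Groups were separate for these genes, 1 higher and 2 lower of the 5, where 9.31% and 5.22% of all genes had separate groups. The part of blood cells in the members' values was not tested.

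Hindbrain neural tube genes, which mark tissue beside the ear, differed far more than any endothelial group: 13 of 13 tested were lower in Mest-KO, with a median log2 difference of -1.19 and 0 past the threshold over all genes. Their list means were 0.87, -0.30 and 0.92 in controls and -0.61, -0.08 and -0.79 in Mest-KO, with sums of 601 to 1910 and 343 to 778, and 3 of 18 with a probe set were at background on all 6 arrays. The list mean of control 2 lay within the range of the Mest-KO pools. Even so, 4 of the 13 genes, Neurog2, Lhx2, Lhx9 and Ptf1a, had separate groups on the lower side, where 5.22% of all genes did. For Ptf1a the separation from control 2 lay under the background of 11.2, at 7.96 on control 2 and 0.551 to 6.16 in Mest-KO. Lhx9 was near background on these arrays, at 18.4 on control 2 and 6.36 to 15.3 in Mest-KO. With this list's mean as a covariate the members' median was 0.25, with 34 higher and 2 lower and 0 past the threshold, where 56.1% of all genes were higher. The list mean itself differed by genotype. Within a group it departed most on control 2, where 33 of 36 members were below their own mean. That fit therefore separates genotype from the covariate poorly, and the SE of the Tie1 difference rose from 0.14 to 0.21. The Y-linked genes, which follow the sex of pooled embryos, had list means of -0.49, 0.43 and -0.43 in controls and 0.26, 0.23 and 0.01 in Mest-KO, and with them as a covariate the median was 0.09.

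Genes of the periotic mesenchyme, the tissue in which these vessels lie (8, all above background), were lower on average in every Mest-KO pool: the list means were 0.23, 0.13 and 0.10 in controls and -0.24, -0.02 and -0.19 in Mest-KO. The median log2 difference was -0.32, with 6 lower, 2 higher and 0 past the threshold. Groups were separate for 3 of the 8, all lower, where 5.22% of all genes had separate groups on the lower side. Sums were 15895 to 16560 in controls and 14393 to 15883 in Mest-KO. Otic epithelium genes (8, all above background) had a median of -0.08, with 4 higher and 4 lower, list means of -0.01, 0.19 and 0.01 in controls and -0.11, -0.21 and 0.13 in Mest-KO, and sums of 7887 to 9637 and 8856 to 10115. The part of either tissue in the endothelial values was not tested.

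**Figure D5:**
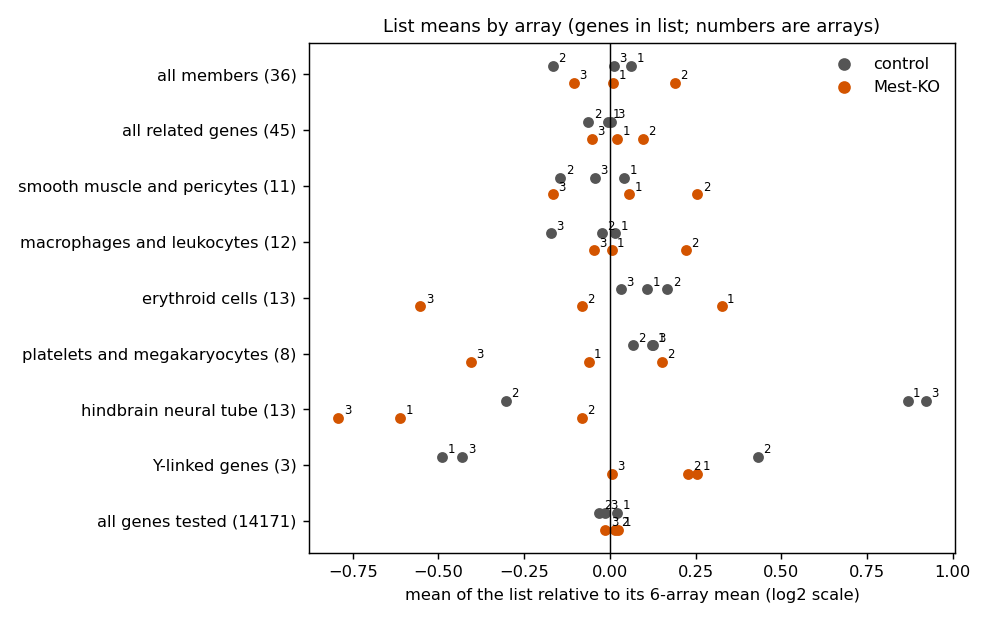
Mean of each gene list on each array (horizontal axis, relative to the list's 6-array mean on the log2 scale), for the 36 endothelial genes, the 45 related genes, marker lists of other cell types and all genes tested. Grey points are the 3 control pools and orange points the 3 Mest-KO pools, numbered. Endothelial and pericyte lists are high on Mest-KO 2, erythroid and platelet lists are lowest on Mest-KO 3 (-0.55 and -0.41), and hindbrain genes are high on controls 1 and 3.

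In 45 related vascular genes that were tested, outside the 36, 0 passed the threshold over all genes and the median log2 difference was 0.05. Of the 45, 29 (64.4%) were higher and 16 lower, where 53.8% of all genes were higher. In the VEGF and angiopoietin ligands and coreceptors (12 genes, median 0.07), Vegfd, a VEGF family ligand of the lymphatic receptor Flt4, read 293 ± 53.5 in controls and 365 ± 2.57 in Mest-KO (SD, n = 3), a log2 difference of 0.32 ± 0.14 (SE). This rests on 1 of 3 Vegfd probe sets, one with the suffix for shared probes, and the mean of the 3 gave -0.0055. Pgf, placental growth factor and a ligand of Flt1, read 277 ± 37.1 and 213 ± 34.9 (SD, n = 3), a log2 difference of -0.36 ± 0.15 (SE), which was -0.15 without control 2 and Mest-KO 2. The adjusted p by limma was 0.533 for Vegfd and 0.523 for Pgf. Adm, adrenomedullin, which signals through Ramp2, had a log2 difference of 0.38 ± 0.19 (SE; adjusted p = 0.587 by limma), which was 0.13 without control 2, 0.65 with the Y-linked covariate and 0.77 with the hindbrain covariate.

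Other blood endothelial genes (23 tested) had a median of 0.04, with 14 higher and 9 lower. Mcam (CD146), an adhesion molecule of endothelium and pericytes, read 632 ± 28.3 in controls and 759 ± 49.8 in Mest-KO (SD, n = 3), a log2 difference of 0.26 ± 0.10 (SE; adjusted p = 0.464 by limma). Thbd was also higher, at 0.16 ± 0.09 (SE; adjusted p = 0.641 by limma). S1pr1 went the other way, at -0.34 ± 0.19 (SE; adjusted p = 0.637 by limma), and both had overlapping groups. Notch and arteriovenous genes (10, median 0.07) had 6 higher and 4 lower. Efnb2 (ephrin B2), the arterial ligand of Ephb4, read 3715 ± 283 and 3276 ± 190.1 (SD, n = 3), a log2 difference of -0.18 ± 0.08 (SE; adjusted p = 0.534 by limma). The receptor Notch1 had a log2 difference of 0.17 ± 0.08 (SE; adjusted p = 0.565 by limma), and 0.10 with arrays centred on their medians.

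A second or further probe set read 14 of the 36 members, 21 in all, of which 19 had a mean above background. Of those 19, 14 had the sign of the probe set used, 5 did not, and 0 differed from it by over 0.5 in log2 difference. The groups did not overlap for 4 of the 19, all higher in Mest-KO, where 9.31% of all genes tested did so on that side. A single probe set of the 4 is of Clec14a. The rest are of Egfl7, whose brightest probe set had already separated the groups.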

How the data were processed

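Each of the 6 arrays held 1 pool of 3 embryos, with 300 ng of total RNA labelled, and the labels call the 3 pools of a genotype biological replicates. The deposited intensities were linear, and the authors made them with Expression Console 1.1 (per the submitters' processing notes). How probes were summarized is not given in the sources used here. All 6 arrays had been scaled to one trimmed mean, which hides any shift common to most genes.

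Values were taken as log2(intensity + 16), which understates changes of dim genes. Each gene was read from its brightest single-symbol probe set (mean over 6 arrays), and genes above the 30th percentile were kept, 14171 in all. The genotypes were compared in limma 3.58.1 (R 4.3.3) with eBayes and trend, two-sided, with Benjamini-Hochberg adjustment at 0.05, after the scripts had been tested on simulated data. Differences with errors are given for members with separate groups and the 12 with the smallest p, and other members by role; in other lists up to 3 genes with the smallest p could be named. Members and lists were chosen with earlier results of these data known. Alternatives covered scaling, pseudocount, filter, probe sets, variance model, covariates, the replicate block and left-out pools.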

Additional observations from a re-analysis of the deposited data

How the results depend on the processing

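None of the 36 endothelial genes passed the threshold under any of the 19 alternatives, 18 planned and 1 added after the data were seen (without control 2 and Mest-KO 2). The lowest adjusted p of a member by limma ranged from 0.145, with array weights, to 0.515, without Mest-KO 1. An unadjusted p under 0.05 was kept by Tie1 in 19 of 19 alternatives, Tek in 17, Vwf in 16, Mmrn2 in 11 and Robo4 in 8. The members' median of 0.04 was 0.25 with the hindbrain list's mean, which itself differed by genotype, as a covariate. Leaving out 1 pool put the median between -0.03, without Mest-KO 2, and 0.10, without Mest-KO 3. Without control 2 and Mest-KO 2 it was -0.06. The number of all genes past the threshold, 21, was 76 with arrays centred on their medians, 2 with no filter, 6 with the mean of all probe sets, 1 without the trend and 6 with the hindbrain covariate. Leaving out 1 pool gave 2 (without control 1) to 82 (without control 2) genes, with 6 without control 3, 3 without Mest-KO 1 and 9 without Mest-KO 2, and leaving out control 2 and Mest-KO 2 together gave 82. Of 398 values of named genes under alternatives, 2 changed sign: Vegfd was -0.0055 with the mean of all probe sets, and Apln was 0.021 with the hindbrain covariate. The cause of these changes was not tested. Same-numbered pools did not deviate together (correlations of -0.03, -0.11 and -0.15), so the numbers give no pairing. With a replicate block, 9 genes and 0 members passed. For arrays, their number limits the precision.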
